A study of Homo sapiens with 12 samples.

Results

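The RNA of 4 Kelly cell libraries was compared to ask how the transcriptome differs when the RCOR2 message is lowered: 2 libraries with an induced short hairpin RNA (shRNA) against RCOR2 and 2 with an induced control shRNA. They are 4 of the 12 RNA-seq libraries of the series and were chosen by their labels. Kelly is a human neuroblastoma line with an amplified MYCN gene. The shRCOR2 line carries a hairpin against RCOR2 and the shCTRL line a non-targeting hairpin, both switched on by doxycycline. Induced cells of both lines received 2 µg/mL doxycycline, so the drug is common to both sides. The labels disagree on the length of induction: 72 h in the time field and the design text, 24 or 48 h in the treatment protocol. Untreated shRCOR2 and shCTRL cells (2 libraries each) show how far the lines differ without the drug. Induced shRCOR1 cells (2 libraries), which express a hairpin against RCOR1, serve as a second induced knockdown. The labels do not say whether a line is a clone or a pool, or whether replicates are separate cultures, so p-values measure only the spread between these samples. With 1 hairpin line for RCOR2, the loss of RCOR2, other effects of that hairpin and the line itself cannot be told apart in the induced comparison alone.

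RCoR proteins, also called CoREST proteins, are scaffolds. They join the histone demethylase KDM1A (LSD1) to the histone deacetylases HDAC1 and HDAC2 and bring the complex to chromatin, where it removes active marks. The founding member was found as a partner of REST, the repressor of neuronal genes outside neurons. Neuroblastoma arises from the sympathoadrenal lineage, and its adrenergic state is held by a circuit of transcription factors such as HAND2, GATA3 and MYCN.

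Expression was read in TPM, a length-normalised share of the RNA in each library with the same total in all of them, so a lower share and fewer molecules per cell cannot be told apart. Depth, by the ratio of coverage to FPKM (a second deposited unit, per length and depth), was 2.00 and 2.1 times that of the shallowest library for induced shRCOR2 and 1.16 and 1.83 times for induced shCTRL. None of the 12 neuroblastoma markers was under 1 TPM in all 4 libraries, and their summed level was 4602 and 5219 TPM in induced shRCOR2 against 7103 and 6140 TPM in induced shCTRL. All 6 leukocyte markers stayed under 1 TPM. The 8 Schwann cell markers summed to 4.54 and 4.50 TPM in induced shRCOR2 and to 4.70 and 13.1 TPM in induced shCTRL, and 4 of them were under 1 TPM in all 4 libraries. The 8 fibroblast markers summed to 65.1 and 75.4 TPM against 54.5 and 168 TPM, so the high values of both lists lay in replicate 2 of induced shCTRL.

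The target came first. RCOR2 (ENSG00000167771.6, chromosome 11, 63911230 to 63917164, GRCh38) stood at 17.7 and 20.5 TPM in induced shRCOR2 and at 49.7 and 42.7 TPM in induced shCTRL. Untreated libraries held 55.4 and 49.9 TPM (shRCOR2) and 54.6 and 50.2 TPM (shCTRL), so only the 2 libraries with the induced RCOR2 hairpin were low among these 8. The log2 difference was −1.23 ± 0.10 (SE; limma adjusted p = 0.000152), and log2 differences here are on the log2(TPM + 1) scale. Induced shRCOR1 cells held 26.0 and 26.3 TPM of RCOR2, between the other induced lines, and RCOR2 was lower still in induced shRCOR2 (−0.44, limma adjusted p = 0.00731).

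Among the other members of the CoREST machinery, the related scaffolds and the demethylase gave no call. RCOR1 stood at 9.29 and 9.92 TPM in induced shRCOR2 and at 8.83 and 9.15 TPM in induced shCTRL (0.09 ± 0.11, limma adjusted p = 0.576). RCOR3 (0.05 ± 0.12) and KDM1A (−0.06 ± 0.06, 278 and 277 against 287 and 291 TPM) were likewise not called. The deacetylases moved in opposite directions. HDAC2 fell from 138 and 130 TPM in induced shCTRL to 55.6 and 70.9 TPM (−1.08 ± 0.11), while HDAC1 rose from 99.3 and 99.1 to 127 and 143 TPM (0.44 ± 0.07). In both cases the induced shRCOR2 libraries lay apart from the 2 controls. Untreated shRCOR2 cells held 144 and 138 TPM of HDAC2, close to untreated shCTRL at 142 and 131 TPM. The corepressor CTBP2 fell (−0.43 ± 0.10), its paralog CTBP1 rose (0.28 ± 0.07) and the zinc finger gene ZNF217, whose protein binds CoREST complexes, rose (0.52 ± 0.12). CTBP2 shares 3873 bases with ZRANB1 on the opposite strand, which also fell (−0.51), so the 2 may share reads. REST was sparse, at 1.07 and 1.27 TPM in induced shRCOR2 and 1.79 and 6.17 TPM in induced shCTRL (−1.05 ± 0.27), and its call ended without the replicate block. Of 22 listed genes of the complex and its partners 20 were measured well enough to test, and 3 rose and 4 fell (35.0%), in a comparison that called 35.8% of all genes. Without the block 1 rose and 3 fell, and CTBP1 and ZNF217 were not called. The counts were 1 and 3 without replicate 2 of induced shRCOR2 too. CTBP1 (0.26 and 0.30) and CTBP2 (−0.40 and −0.46) were not called without replicate 1 or replicate 2 of induced shRCOR2, CTBP2 (−0.27) and ZNF217 (0.35) without replicate 1 of induced shCTRL, and ZNF217 (0.43) without replicate 2 of induced shRCOR2. REST came to −0.67 without replicate 2 of induced shRCOR2 and −0.69 without replicate 2 of induced shCTRL, with no call.

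Over the whole transcriptome, 3871 of 16842 genes tested were higher in induced shRCOR2 than in induced shCTRL (23% of genes) and 2161 were lower (12.8%), by limma at an adjusted p below 0.05 with a term for the replicate number, the block. The groups did not overlap for 5577 genes in the higher direction (33.1%) and 3145 in the lower (18.7%). Most differences were small: 295 rises (1.75% of genes) and 340 falls (2.02%) reached 2-fold, and 20 and 18 reached 4-fold. The balance of directions depended on scaling, since the median of all genes was 0.09 with TPM. Rises made up 64.2% of calls with TPM, 53.4% with quantile normalization (3144 rises, 2740 falls) and 47.7% with median-of-ratios scaling (2637 and 2889). Without the block limma called 1657 rises (9.84%) and 894 falls (5.31%), and in a fit of the 4 libraries alone 633 and 551.

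Without doxycycline no gene passed the test between the 2 lines. Limma called 0 of 16842 genes between untreated shRCOR2 and untreated shCTRL (0%), with 339 genes at an unadjusted p below 0.05 and 123 without the block. The middle 90% of genes lay between −0.29 and 0.22 there, against −0.75 and 0.76 in the induced comparison. The difference between both line differences was called for 1504 genes upward (8.93%) and 977 downward (5.8%), and for 352 in total without the block. These 2 comparisons share no library, only the lines and the replicate numbers, and their differences correlated across genes at r = 0.19, where genes are not independent replicates.

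**Figure D1:**
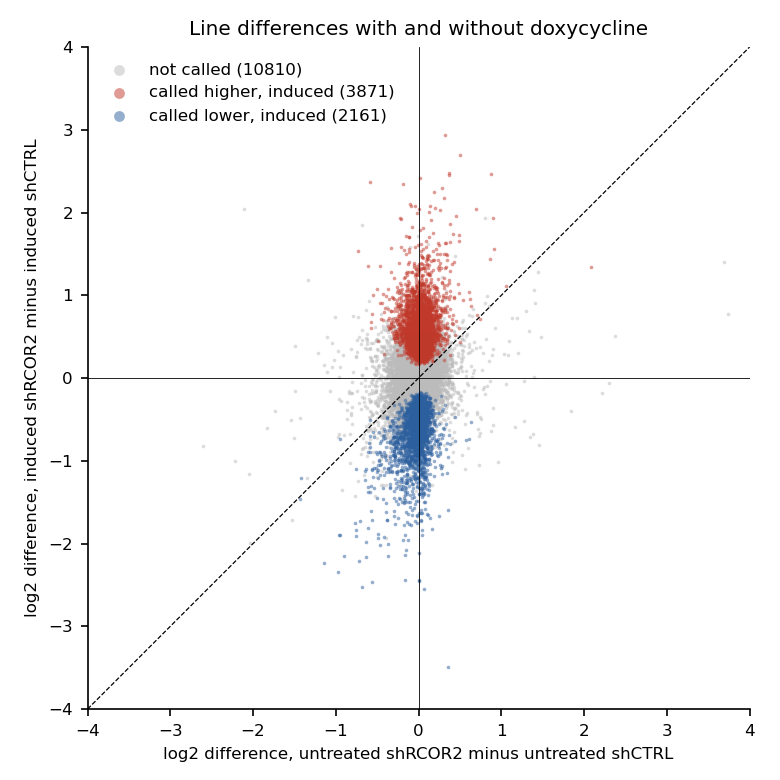
Line difference of each of 16842 genes with doxycycline (vertical axis) against that without it (horizontal axis), both as log2 differences on the log2(TPM + 1) scale, with 1 gene beyond the axes. The 3871 genes called higher and 2161 called lower in the induced comparison form a vertical cloud around 0 on the untreated axis rather than following the dashed line of equal differences.

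The largest falls included a group of abundant transcripts that were even across replicates. TXNRD1 (chromosome 12, 104215779 to 104350307), which encodes cytosolic thioredoxin reductase, stood at 32.6 and 30.8 TPM in induced shRCOR2 and at 206 and 177 TPM in induced shCTRL. It held 222 and 187 TPM in untreated shRCOR2 and 210 and 181 TPM in untreated shCTRL. The induced RCOR2 hairpin libraries thus lay far below the other 6, with a log2 difference of −2.55 ± 0.10 (limma adjusted p = 1.23e-05). STMN1, for the microtubule-destabilising protein stathmin, stood at 127 and 108 TPM against 767 and 544 TPM (−2.46 ± 0.12). SLC7A5, the leucine transporter subunit LAT1, stood at 45.5 and 46.6 TPM against 210 and 309 TPM (−2.44 ± 0.11). Untreated SLC7A5 levels were 119 to 163 TPM in the 4 libraries, so the gap held a low value in induced shRCOR2 and a high one in induced shCTRL.

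COX7A2L, which encodes a factor of respiratory supercomplex assembly, fell from 113 and 128 TPM to 22 and 20.7 TPM (−2.44 ± 0.11). IGBP1, for a binding protein of phosphatase catalytic subunits, fell from 42.7 and 56.5 TPM to 10.8 and 10.1 TPM (−2.13 ± 0.11). TSPO, for a protein of the outer mitochondrial membrane, fell from 82.6 and 130 TPM to 23.0 and 24.7 TPM (−2.08 ± 0.15). All 3 were called with and without the block, and in each the 2 groups were far apart. MZT1, a subunit of the γ-tubulin machinery (53.3 and 53.2 to 14 and 13.1 TPM), and the histone chaperone gene ANP32E (287 and 231 to 74.6 and 70.2 TPM) showed the same evenness. TXNRD1, STMN1, SLC7A5, COX7A2L, IGBP1, TSPO, MZT1 and ANP32E were picked partly for a call in the difference between both line differences (−2.62 to −1.93). That test shares the induced libraries with this comparison, so the call is not separate support.

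A second group of large falls had control replicates far apart, with replicate 2 of induced shCTRL the higher. PMEL, a melanosome matrix gene, stood at 1.14 and 4.14 TPM in induced shRCOR2 and at 5.85 and 51.8 TPM in induced shCTRL (−2.52 ± 0.51). ZFP36L1, an mRNA decay factor, stood at 0.291 and 1.83 TPM against 3.03 and 22.3 TPM (−2.34 ± 0.36). The groups did not overlap in either gene, which the rule for the largest falls required. On the log2(TPM + 1) scale the control replicates were nonetheless further apart than the group means. MEF2B (−2.47 ± 0.62), HES7 (−2.22 ± 0.34), PYGL (−2.16 ± 0.42) and KLK4 (−2.15 ± 0.31) also fell, with replicate 2 the higher control. None of these 6 was called without the block. Nor was any of the 6 called in the difference between both line differences (limma adjusted p from 0.0687 to 0.175). Their differences between the untreated lines ran from −0.97 to −0.56, with no call. MEF2B shares 46563 bases with BORCS8-MEF2B on the same strand, which was not called (0.46). It also shares 15229 bases with BORCS8 on that strand, which rose (0.70), so these genes may share reads. Left without replicate 2 of induced shCTRL, PMEL (−2.04), ZFP36L1 (−1.93), HES7 (−1.95), PYGL (−1.73) and KLK4 (−1.89) stayed called and MEF2B (−1.68) did not. Without replicate 2 of induced shRCOR2, PMEL (−1.99) and MEF2B (−1.79) were not called and PYGL came to −1.43, still called. SLC16A3, the lactate exporter MCT4, fell from 37.5 and 44.6 TPM to 5.53 and 12.7 TPM (−2.15 ± 0.25) and was called either way. In 102 of the 340 genes that fell by 2-fold the control replicates themselves differed by 2-fold, with replicate 2 the higher in 100, and 7 of the 102 were called without the block. Among all genes tested 1252 had replicate 2 at least 2-fold higher in induced shCTRL and 197 had replicate 1 higher.

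**Figure D2:**
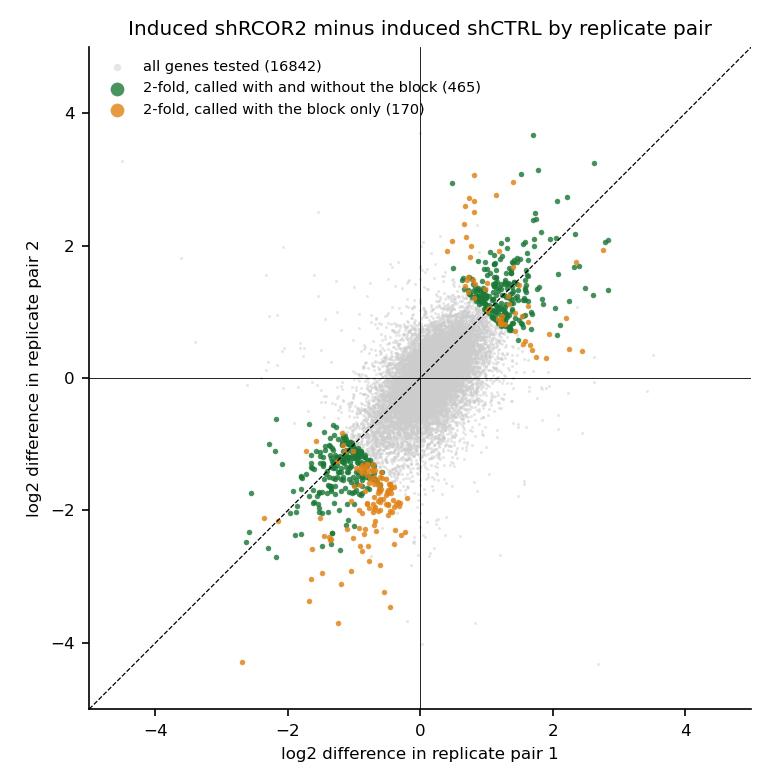
Log2 difference between induced shRCOR2 and induced shCTRL in replicate pair 1 (horizontal) and replicate pair 2 (vertical) for 16842 genes, with 1 gene beyond the axes. Of 635 called genes with a 2-fold difference, 465 (green) were also called without the replicate block and 170 (orange) were not; many orange falls lie below the dashed line of equality because their difference is larger in pair 2.

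Rises were led by a neuropeptide. VIP, vasoactive intestinal peptide, stood at 8.61 and 9.44 TPM in induced shRCOR2 and at 0.563 and 0.095 TPM in induced shCTRL (2.94 ± 0.21, limma adjusted p = 8.45e-05). The 4 untreated libraries held 0.298 to 0.848 TPM. DKK1, a secreted Wnt inhibitor, stood at 159 and 134 TPM against 33.4 and 19.2 TPM (2.48 ± 0.20). In both genes the induced shRCOR2 libraries were far above the other 6. DKK1 shares 227 bases with PRKG1-AS1 on the opposite strand, which also rose (2.03), so the 2 may share reads. SHOX2, a homeobox transcription factor, stood at 118 and 185 TPM against 22.6 and 40.3 TPM (2.25 ± 0.13). PLXNB3, a semaphorin receptor, stood at 9.89 and 8.39 TPM against 0.569 and 1.27 TPM (2.42 ± 0.20). IP6K3, an inositol hexakisphosphate kinase, stood at 8.54 and 7.25 TPM against 0.342 and 2.29 TPM (2.08 ± 0.31). VIP, DKK1, SHOX2, PLXNB3 and IP6K3 were picked partly for a call in the difference between the induced and untreated line differences (2.06 to 2.62). That test uses the same induced libraries, so its call is not separate support.

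Other large rises had a wider spread. DHRS2, a mitochondrial reductase gene, stood at 34.4 and 17.6 TPM against 3.95 and 3.39 TPM (2.46 ± 0.36), but untreated shRCOR2 cells already held 5.42 and 12.5 TPM, and the difference of line differences was not called (limma adjusted p = 0.0721). SERTM2, a small membrane protein gene, stood at 19.99 and 33.4 TPM against 2.08 and 8.01 TPM (2.35 ± 0.29), and was not called without the block. ACTA2, smooth muscle actin, stood at 18.8 and 17.1 TPM against 2.54 and 6.07 TPM (1.92 ± 0.25). Its annotated interval overlaps that of FAS on the opposite strand by 809 bases, and since the strand setting of the counting is not known the 2 genes may share reads. FAS rose too, from 1.86 and 1.34 TPM to 5.14 and 4.35 TPM (1.15 ± 0.14).

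**Figure D3:**
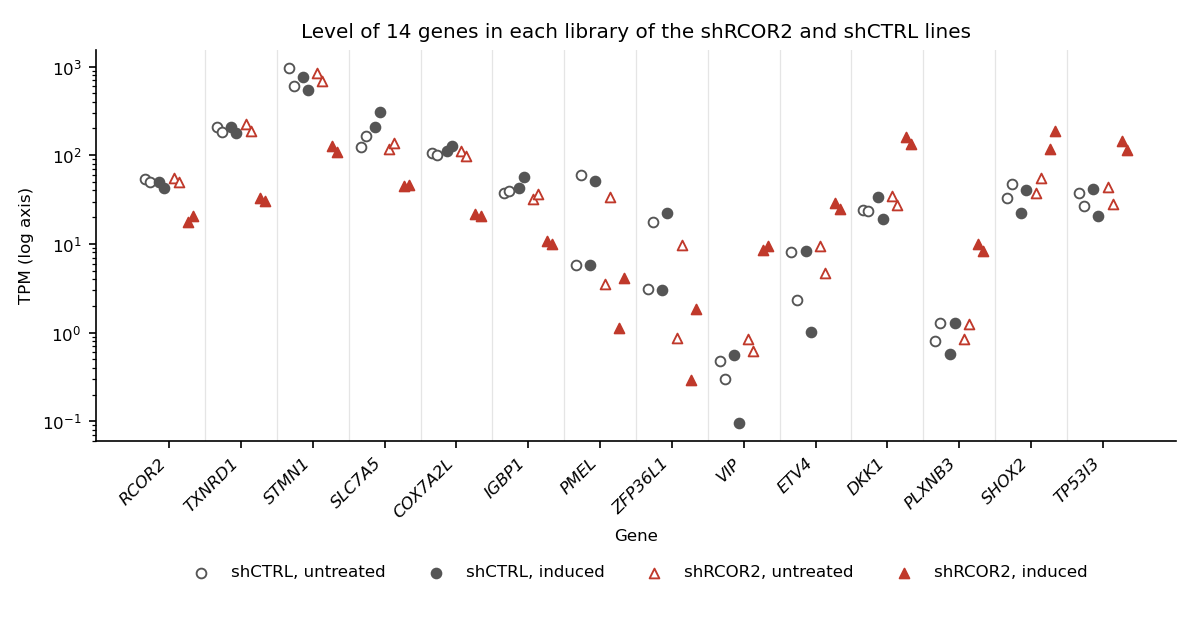
TPM on a log axis of 14 genes in each of 8 libraries; circles are shCTRL, triangles shRCOR2, open symbols untreated and filled symbols induced, with 1 point per library. The filled triangles stand apart for TXNRD1, STMN1, COX7A2L and VIP, whereas PMEL and ZFP36L1 show a replicate gap in every group.

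Genes of the ERK pathway split. ETS factors and feedback inhibitors that growth factor signalling through ERK induces were among the strongest rises. The ETS gene ETV4 stood at 29.1 and 24.7 TPM in induced shRCOR2 and at 8.26 and 1.01 TPM in induced shCTRL (2.69 ± 0.46). Its relative ETV1 stood at 60.6 and 68.2 TPM against 20.6 and 7.14 TPM (2.30 ± 0.34). SPRY4, an inhibitor of receptor signalling, stood at 19.5 and 20.2 TPM against 5.27 and 3.04 TPM (2.05 ± 0.46). The induced shRCOR2 replicates agreed closely while the controls were spread. No groups overlapped, as in 33.1% of all genes in the higher direction. PTPRR, a phosphatase that acts on ERK, rose from 1.58 and 1.92 to 12.5 and 8.45 TPM (2.04 ± 0.20), and the ERK phosphatase gene DUSP6 from 8.73 and 3.55 to 21.6 and 17.7 TPM (1.63 ± 0.23). ETV5 (0.99 ± 0.31), SPRY2 (0.66 ± 0.15) and DUSP4 (0.48 ± 0.12) rose less. Without replicate 2 of induced shCTRL, SPRY4 (1.68), ETV5 (0.59), SPRY2 (0.49) and DUSP4 (0.47) kept the direction and were no longer called; without replicate 2 of induced shRCOR2 they came to 2.01, 0.79, 0.49 and 0.37, again with no call. ETV5 was not called without replicate 1 of induced shRCOR2 either (1.19). SPRY1 (−0.68 ± 0.16) and the receptor genes NTRK3 (−0.66 ± 0.22), GFRA2, EGFR and MET fell with the block only. Without replicate 2 of induced shCTRL NTRK3 (−0.38), EGFR (−0.23) and MET (−0.36) were not called, and without replicate 1 SPRY1 (−0.52) and GFRA2 (−0.51) were not. In all, 10 of 29 tested genes of the list (33 listed) rose and 5 fell (51.7% called, against 35.8% of all genes). The list median was −0.07, and 7 rose and 0 fell without the block. Left without replicate 1 or replicate 2 of induced shRCOR2, 9 and 4 rose and 1 fell each time, and without replicate 1 or replicate 2 of induced shCTRL 9 and 5 rose and 3 fell each time. The difference of line differences was called for 3, all upward.

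These genes did not rank the induced knockdowns alike. Against induced shRCOR1, ETV1 was higher in induced shRCOR2 (1.99; 15.1 and 15.8 TPM in induced shRCOR1) and so was PTPRR (1.77). DUSP6 was lower (−1.56; 59.9 and 59.4 TPM in induced shRCOR1), as were DUSP4 (−2.76), SPRY4 (−1.78) and ETV5 (−0.85), while ETV4 was not called (−0.74, limma adjusted p = 0.217). Of the largest rises, SHOX2 (2.64), TP53I3 (2.59), PLXNB3 (2.31), IP6K3 (2.47) and DHRS2 (3.62) were higher in induced shRCOR2 than in induced shRCOR1. VIP was not called (0.38; 5.71 and 7.87 TPM in induced shRCOR1) and DKK1 was lower (−1.53; 406 and 443 TPM). Of the largest falls, TXNRD1 (−3.09), SLC7A5 (−3.13), STMN1 (−2.23), IGBP1 (−2.10) and COX7A2L (−1.82) were lower in induced shRCOR2. PMEL (−0.53), MEF2B (−0.98) and KLK4 (0.60; 2.93 and 5.15 TPM in induced shRCOR1) were not called. This comparison called 48.1% of all genes, and it shares the induced shRCOR2 libraries with the one against shCTRL.

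Many genes that p53 switches on rose. TP53I3, a quinone oxidoreductase gene, stood at 143 and 113 TPM in induced shRCOR2 and at 41.8 and 20.7 TPM in induced shCTRL (2.08 ± 0.18). The RNA-binding protein gene ZMAT3 stood at 47.9 and 50.3 TPM against 15.6 and 21.1 TPM (1.39 ± 0.12). CDKN1A, for the cell cycle inhibitor p21, stood at 136 and 121 TPM against 52.1 and 54.7 TPM (1.25 ± 0.13). In all 3 the induced shRCOR2 libraries were at least 2-fold above both controls, and the untreated lines held lower, overlapping levels (TP53I3 43.5 and 28.2 TPM in shRCOR2, 37.4 and 27.0 TPM in shCTRL). The kinase genes PLK3 (1.33 ± 0.14) and PLK2 (1.32 ± 0.23), the ferredoxin reductase gene FDXR (1.08 ± 0.08) and the death effector gene BAX (315 and 280 against 180 and 128 TPM, 0.96 ± 0.10) also rose. The feedback regulator MDM2 was not called (0.24 ± 0.11), nor was the death gene BBC3 (0.38 ± 0.19), and SESN1 fell (−0.58 ± 0.11). Of the 28 listed targets, all tested, 15 rose and 1 fell, and 13 and 1 did so without the block. Their median of 0.63 stands against 0.09 for all genes, and 13 were called in the difference of line differences, all upward.

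Several genes of mitosis fell. BIRC5, for the mitotic protein survivin, stood at 47.4 and 37.4 TPM in induced shRCOR2 and at 151 and 85.2 TPM in induced shCTRL (−1.41 ± 0.16). PLK1, a mitotic kinase gene, stood at 57.1 and 43.0 TPM against 104 and 70.2 TPM (−0.78 ± 0.17), and TOP2A, for the topoisomerase that untangles chromosomes, at 125 and 110 TPM against 198 and 156 TPM (−0.58 ± 0.13). In each gene replicate 1 exceeded replicate 2 in both groups. MKI67 (−0.22 ± 0.16) and CCNB1 (−0.24 ± 0.13) were not called. Of 35 G2/M genes 16 fell and 0 rose (45.7% called, against 35.8% of all genes). Their median was −0.33, with every member below 0. Without the block the falls came to 1, BIRC5. They came to 5 without replicate 1 of induced shRCOR2, 14 without its replicate 2, and 10 and 11 without replicate 1 and replicate 2 of induced shCTRL. PLK1 (−0.64) and TOP2A (−0.50) were not called without replicate 1 of induced shRCOR2.

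Many promoters of G2/M genes carry the cell cycle homology region, a short element bound by the complex that represses them outside mitosis. A stretch upstream of TOP2A is shown because it holds the element in both orientations. It spans chr17:40417985-40418104 on the minus strand of GRCh38.p14 (RefSeq), 208 to 89 bases before the start, with TTTGAA or its reverse complement in capitals.
TOP2A: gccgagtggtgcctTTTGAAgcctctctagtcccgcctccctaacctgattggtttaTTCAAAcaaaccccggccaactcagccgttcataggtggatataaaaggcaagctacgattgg
TTTGAA was searched on both strands from 250 bases before to 50 after each start. It occurred in 22 of the 30 tested G2/M genes with a RefSeq window, in 10 of the 12 that fell, and in 13.4% of 10874 tested genes (15.2% of all 35116 windows).

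Of 41 DNA replication genes 5 rose and 3 fell, with a median of 0.14 and counts that moved with each library left out. Without replicate 1 of induced shCTRL 22 rose and 1 fell, and without replicate 2 1 rose and 8 fell. Without replicate 1 or replicate 2 of induced shRCOR2 2 and 1 rose, and 1 fell each time. Without the block 0 rose and 1 fell. Between the untreated lines the list median was 0.17. In the difference of line differences it was −0.05, with 0 genes called higher and 1 lower. The fall of the helicase subunit MCM4 (28.9 and 27.6 TPM against 94.9 and 45 TPM, −1.18 ± 0.21) was called with and without the block. RFC5, a clamp loader subunit, rose with the block only (0.55 ± 0.12; 0.51 without replicate 2 of induced shRCOR2, not called). Of the replication-dependent histone genes 34 of 43 listed were tested, and 9 rose and 0 fell, with a median of 0.42. H4C14 stood at 34.1 and 34.6 TPM against 11.6 and 22.8 TPM (1.03 ± 0.28) and H4C3 at 5.37 and 6.30 TPM against 2.65 and 2.95 TPM (0.85 ± 0.17). H4C14 was not called without replicate 1 of induced shCTRL (0.54) or without replicate 1 (0.97) or replicate 2 (1.08) of induced shRCOR2, and H4C3 was not called without replicate 2 of induced shRCOR2 (0.73). Histone rises numbered 2 without the block, 3 and 0 without replicate 1 and replicate 2 of induced shRCOR2, and 1 and 15 without replicate 1 and replicate 2 of induced shCTRL.

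Most listed glycolysis and hypoxia genes fell and none of them rose. LDHA, lactate dehydrogenase A, stood at 172 and 168 TPM in induced shRCOR2 and at 737 and 415 TPM in induced shCTRL (−1.69 ± 0.19). PDK1, which restrains pyruvate entry into mitochondria, stood at 3.93 and 4.68 TPM against 12.6 and 13 TPM (−1.38 ± 0.14). HK2, a hexokinase gene, stood at 25.7 and 33.3 TPM against 59.0 and 72.6 TPM (−1.13 ± 0.09). The induced shRCOR2 libraries were the lowest of the 8 for these 3 genes. The collagen hydroxylase gene P4HA1 (−1.33 ± 0.14), the glycolytic gene ENO1 (1089 and 876 against 2118 and 1413 TPM, −0.82 ± 0.09) and the oxygen-regulated factor HIF1A (76.0 and 84.3 against 166 and 142 TPM, −0.93 ± 0.11) fell as well. NDRG1, a hypoxia-induced gene, fell (−1.81 ± 0.24), but its control replicates stood at 11.6 and 34.0 TPM and it was not called without the block. EPAS1, the paralog of HIF1A, was not called (0.32 ± 0.21). Of 36 tested genes (38 listed) 23 fell and 0 rose, with 11 falls without the block and 13 in a fit of the 4 libraries alone. The list median was −0.54, and −0.57 to −0.47 with any 1 of the 4 libraries left out. In the difference of line differences 15 falls were called.

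The hypoxia response core ACGTG is the sequence bound by hypoxia-inducible factors, and the E-box CACGTG, bound by MYC proteins among others, contains it in both orientations. The stretch upstream of LDHA is shown because both lie in it close together. It spans chr11:18394432-18394551 on the plus strand of GRCh38.p14 (RefSeq), 131 to 12 bases before the start, with ACGTG or its reverse complement in capitals.
LDHA: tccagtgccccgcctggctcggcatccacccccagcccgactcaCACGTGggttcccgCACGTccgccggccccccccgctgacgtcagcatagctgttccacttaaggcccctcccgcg
ACGTG was present in 18 of 32 tested genes of the list with a window, in 13 of the 21 that fell, and in 32.5% of 10874 tested genes (21.4% of all windows). CACGTG was present in 8 of the 32, in 7 of the 21 that fell, and in 12.8% of tested genes (7.26% of all windows).

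Many sterol synthesis genes, which share the control of SREBP factors, fell. MSMO1, a sterol methyl oxidase gene, stood at 22.1 and 28.0 TPM in induced shRCOR2 and at 43.8 and 87.0 TPM in induced shCTRL (−1.28 ± 0.25). FDFT1, squalene synthase (−0.96 ± 0.19), and HMGCS1, which makes the precursor of mevalonate (−1.11 ± 0.31), were lower too. The groups did not overlap in these 3 genes, as in 18.7% of all genes in the lower direction. Of 25 tested genes (26 listed) 15 fell and 1 rose, with a median of −0.53. Without the block 7 fell. Left without replicate 1 or replicate 2 of induced shRCOR2 5 and 9 fell, and without replicate 1 or replicate 2 of induced shCTRL 17 and 4. Without replicate 2 of induced shCTRL MSMO1 came to −0.84, still called, and HMGCS1 to −0.68, with no call. HMGCS1 was not called without replicate 1 (−0.98) or replicate 2 (−1.24) of induced shRCOR2 either. The difference of line differences was called for 1.

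Several genes of amino acid supply and stress fell, and 40.6% of the tested genes of their list were called, against 35.8% of all genes. Besides SLC7A5, the serine synthesis gene PSAT1 stood at 64.6 and 68.1 TPM in induced shRCOR2 and at 167 and 213 TPM in induced shCTRL (−1.49 ± 0.12). MTHFD2, of mitochondrial folate metabolism, stood at 126 and 122 TPM against 226 and 269 TPM (−0.99 ± 0.09), and CEBPB, a stress-responsive transcription factor, at 30.9 and 31.6 TPM against 66.2 and 93.0 TPM (−1.30 ± 0.14). For PSAT1, MTHFD2 and CEBPB the untreated libraries lay between the induced groups or near the induced shRCOR2 level: CEBPB held 33.1 and 39.3 TPM in untreated shRCOR2 and 33.2 and 46.1 TPM in untreated shCTRL. ATF4, the factor that drives many of these genes, fell slightly (−0.32 ± 0.10, limma adjusted p = 0.0384). Its call ended without the block, without replicate 1 (−0.38) or replicate 2 (−0.26) of induced shRCOR2 and without replicate 2 of induced shCTRL (−0.22). The glutathione-degrading gene CHAC1 (0.15 ± 0.29) and the asparagine synthetase gene ASNS (−0.41 ± 0.23) were not called. The chaperone gene HSPA5 fell from 243 and 353 to 161 and 192 TPM (−0.73 ± 0.16; −0.46 without replicate 2 of induced shCTRL, and −0.64 without replicate 1 of induced shRCOR2, not called). Of 32 tested genes (33 listed) 12 fell and 1 rose, with a median of −0.36, and 9 fell either without the block or without replicate 2 of induced shCTRL.

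Several genes for redox enzymes and heat shock proteins fell alongside TXNRD1. Catalase (CAT) stood at 7.84 and 9.22 TPM in induced shRCOR2 and at 25.8 and 36.4 TPM in induced shCTRL (−1.74 ± 0.13). HSPB1, a small heat shock protein gene, stood at 91.4 and 83.7 TPM against 283 and 271 TPM (−1.65 ± 0.09). SRXN1, for sulfiredoxin, stood at 9.29 and 9.05 TPM against 33.0 and 26.4 TPM (−1.58 ± 0.09). The replicates of each group were close and the groups far apart. GCLM, a subunit of glutathione synthesis, fell (−0.60 ± 0.12), GPX1, a glutathione peroxidase gene, rose with the block only (0.52 ± 0.10), and NFE2L2, the factor NRF2 that drives many antioxidant genes, was not called (−0.24 ± 0.11). Of 36 genes, all tested, 14 fell and 4 rose (50%, against 35.8% of all genes), with a median of −0.21. Without the block 8 fell and 1 rose. Without replicate 1 of induced shCTRL 8 rose.

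NRF2 binds antioxidant response elements, whose core TGACNNNGC was searched on both strands. The stretch before the upstream start of TXNRD1 is shown because this gene had the largest fall of the list. It spans chr12:104215624-104215743 on the plus strand of GRCh38.p14 (RefSeq), 155 to 36 bases before the start, with the core in capitals.
TXNRD1: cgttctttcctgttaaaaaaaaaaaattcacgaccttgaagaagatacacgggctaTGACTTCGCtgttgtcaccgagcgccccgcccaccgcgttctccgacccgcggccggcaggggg
The stretch chr12:104286874-104286993, before the downstream start of TXNRD1, also held the core and is not shown. The core occurred in 6 of 29 tested genes of the list with a window and in 5 of the 11 that fell. It occurred in 19.4% of tested genes and 13.3% of all windows.

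Among adrenergic identity factors the share called was close to that of all genes. TBX2 stood at 99.6 and 70.1 TPM in induced shRCOR2 and at 155 and 151 TPM in induced shCTRL (−0.86 ± 0.15), and it was called with and without the block. MYCN stood at 1269 and 1042 TPM against 2928 and 1421 TPM (−0.83 ± 0.23), with the groups apart but the controls 2-fold from each other, and its call ended without the block. Left without replicate 1 of induced shCTRL the MYCN difference was −0.39, not called, and without replicate 2 it was −1.26, called. Without replicate 1 (−0.80) or replicate 2 (−0.85) of induced shRCOR2 it was not called. LMO3, a cofactor gene, fell (−0.68 ± 0.13). It shares 60888 bases with MGST1 on the opposite strand, which also fell (−1.21), so the 2 may share reads. NEUROD1 rose from 5.24 and 5.33 to 9.52 and 11.1 TPM (0.84 ± 0.13), and HAND1 (0.50 ± 0.16) and GATA3 (0.37 ± 0.10) rose with the block only. HAND1 was not called when any 1 of the 4 libraries was left out (0.40 to 0.61), nor was GATA3 without replicate 1 (0.42) or replicate 2 (0.32) of induced shRCOR2 or replicate 1 of induced shCTRL (0.24). PHOX2A, HAND2, ISL1, GATA2 and TFAP2B were not called, with differences from −0.22 to 0.10. Of 29 tested factors (30 listed) 4 rose and 7 fell (37.9%, against 35.8% of all genes), with a median of −0.10. Without the block 1 rose and 3 fell. Left without replicate 1 or replicate 2 of induced shRCOR2 1 rose each time and 5 and 6 fell, and without replicate 1 or replicate 2 of induced shCTRL 2 and 3 rose and 7 fell each time.

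Ribosome biogenesis and other MYC target genes had a median near 0: of 46, all tested, 3 rose and 10 fell, at −0.01. DDX21, a nucleolar helicase gene, was the exception in size, at 42.9 and 46.3 TPM against 150 and 134 TPM (−1.65 ± 0.09), with untreated lines at 131 to 154 TPM. TSR1 (−0.67 ± 0.11), the chaperone gene HSPD1 (−0.64 ± 0.06) and NIP7 (−0.62 ± 0.12) followed. Without replicate 1 of induced shCTRL 13 of the list rose and 5 fell, and without replicate 2 0 rose and 13 fell. Without replicate 1 or replicate 2 of induced shRCOR2 2 and 0 rose and 6 fell each time, and without the block 0 and 4.

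The catecholamine pathway fell at several steps. Of the tested catecholamine and granule genes 50% were called in either direction, against 35.8% of all genes. DDC, which makes dopamine from L-DOPA, stood at 140 and 272 TPM in induced shRCOR2 and at 648 and 587 TPM in induced shCTRL (−1.65 ± 0.23). SLC18A2, the vesicular monoamine transporter, stood at 20.3 and 38.8 TPM against 62.7 and 84.8 TPM (−1.34 ± 0.14). TH, the rate-limiting enzyme, stood at 122 and 318 TPM against 327 and 383 TPM (−0.84 ± 0.22), and DBH at 599 and 795 TPM against 1039 and 897 TPM (−0.48 ± 0.16). The groups were apart for all 4, narrowly so for TH, where 18.7% of all genes were lower without overlap. TH and DBH were not called without the block. Left without replicate 1 of induced shRCOR2, TH came to −0.45 and DBH to −0.22, and without replicate 1 of induced shCTRL to −0.54 and −0.37, with no call for either. DBH was not called without replicate 2 of induced shCTRL (−0.59) and came to −0.75, called, without replicate 2 of induced shRCOR2. Peptides and granule proteins rose: VIP, the neuropeptide gene NPY (23.2 and 24.2 against 9.56 and 13.1 TPM, 1.02 ± 0.20), SCG2 (0.66 ± 0.16), CHGB (0.60 ± 0.11) and SCG3. SCG2 was not called without replicate 1 (0.69) or replicate 2 (0.63) of induced shRCOR2 and came to 0.35, called, without replicate 1 of induced shCTRL. SCG3 was not called without replicate 2 of either group (0.30 and 0.38). Of 24 tested genes (27 listed) 5 rose and 7 fell, 3 and 2 without the block, and 3 and 6 without replicate 2 of induced shRCOR2.

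Neuronal cytoskeleton and synapse genes were likewise divided. UCHL1, an abundant neuronal deubiquitinase, fell from 783 and 923 to 280 and 280 TPM (−1.60 ± 0.16), and TUBB2B, a neuronal β-tubulin, from 353 and 311 to 186 and 154 TPM (−0.97 ± 0.07). CPLX2, a regulator of vesicle release, fell by 0.90 ± 0.11. SYN1, synapsin I, rose from 15.1 and 18.6 to 29 and 35.1 TPM (0.89 ± 0.09) and the adhesion molecule gene L1CAM from 81.6 and 110 to 149 and 170 TPM (0.74 ± 0.14). In each of these genes the groups did not overlap, as in 33.1% of all genes in the higher direction and 18.7% in the lower. Of 39 tested (40 listed) 8 rose and 9 fell (43.6%, against 35.8% of all genes), with a median of 0.03. Without the block 3 rose and 7 fell, and without replicate 1 or replicate 2 of induced shRCOR2 5 rose each time and 7 and 9 fell.

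Genes of the mesenchymal state and of matrix and adhesion fell more often than they rose. NOTCH3, a receptor linked to the mesenchymal state, stood at 1.75 and 2.18 TPM in induced shRCOR2 and at 5.97 and 17.2 TPM in induced shCTRL (−1.93 ± 0.25). VIM, vimentin, stood at 42.9 and 52.7 TPM against 113 and 281 TPM (−1.88 ± 0.20; called with the block only). FOSL2, an AP-1 subunit, stood at 5.96 and 5.82 TPM against 13.4 and 16.2 TPM (−1.19 ± 0.11). The control spread was wide for NOTCH3 and VIM and narrow for FOSL2. YAP1, a transcriptional coactivator of the Hippo pathway, fell with the block only (−1.05 ± 0.23), and was not called without replicate 2 of induced shRCOR2 (−0.77) or of induced shCTRL (−0.92). TWIST1 rose (0.48 ± 0.11), but not without replicate 1 of either group (0.40 each, not called). Of 26 tested mesenchymal genes (34 listed) 3 rose and 9 fell (46.2%, against 35.8% of all genes), 1 and 3 without the block. Left without replicate 1 or replicate 2 of induced shRCOR2 0 and 1 rose and 10 and 5 fell, and without replicate 1 or replicate 2 of induced shCTRL 1 and 2 rose and 11 and 5 fell. In the matrix list 14 of 32 tested (38 listed) fell and 1, ACTA2, rose (46.9% called), 8 and 1 without the block. CNN1, calponin 1 (1.69 and 2.45 against 5.59 and 9.72 TPM, −1.46 ± 0.17), PLAT, tissue plasminogen activator (−1.34 ± 0.21), and ITGAV, integrin αV (−0.90 ± 0.10), were among the falls. The summed fibroblast and Schwann cell markers were also high in replicate 2 of induced shCTRL. In replicate 1 the fibroblast sum was 65.1 TPM in induced shRCOR2 and 54.5 TPM in induced shCTRL. The Schwann sum was 4.54 TPM in induced shRCOR2 and 4.70 TPM in induced shCTRL there. The part of these markers in the falls was not tested.

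In the Notch, Wnt and Hedgehog list (36 listed, 29 tested) DKK1 rose and 6 genes fell, among them the Notch-modifying enzyme gene LFNG (13.3 and 12.5 against 25.7 and 29.4 TPM, −1.04 ± 0.10) and the ligand gene DLL3 (20.4 and 21.2 against 45.5 and 40.9 TPM, −1.02 ± 0.11). The falls came to 3 without replicate 2 of induced shRCOR2. Of 20 tested interferon and MHC class I genes (35 listed) 2 rose, IRF7 (0.91 ± 0.12) and IFI35 (1.07 ± 0.17), and 4 fell, BST2 with the block only (−1.98 ± 0.40). Left without replicate 2 of induced shRCOR2, 2 fell, and BST2 came to −1.51, not called. Immediate early genes gave 1 rise, ARC (0.97 ± 0.27, not called when any 1 of the 4 libraries was left out), and 1 fall, FOSL2, of 17 tested (22 listed). Nuclear genes of the respiratory chain had 6 rises and 7 falls of 46, with a median of 0.00, and 1 and 3 without the block. Without replicate 1 or replicate 2 of induced shRCOR2 4 and 2 rose and 6 fell each time. Single subunits moved far within it: COX6C fell from 210 and 170 to 78.7 and 63.9 TPM (−1.40 ± 0.06) and UQCRC2 from 229 and 265 to 128 and 121 TPM (−0.98 ± 0.08), while COX7C rose from 374 and 344 to 603 and 533 TPM (0.66 ± 0.06). Of the 13 messages of the mitochondrial genome 2 rose and 1 fell, 0 and 0 without the block and 2 and 0 with any 1 of the 4 libraries left out, and MT-ND1 stood at 7761 and 9037 TPM against 5759 and 6077 TPM (0.50 ± 0.07; called with the block only).

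**Figure D4:**
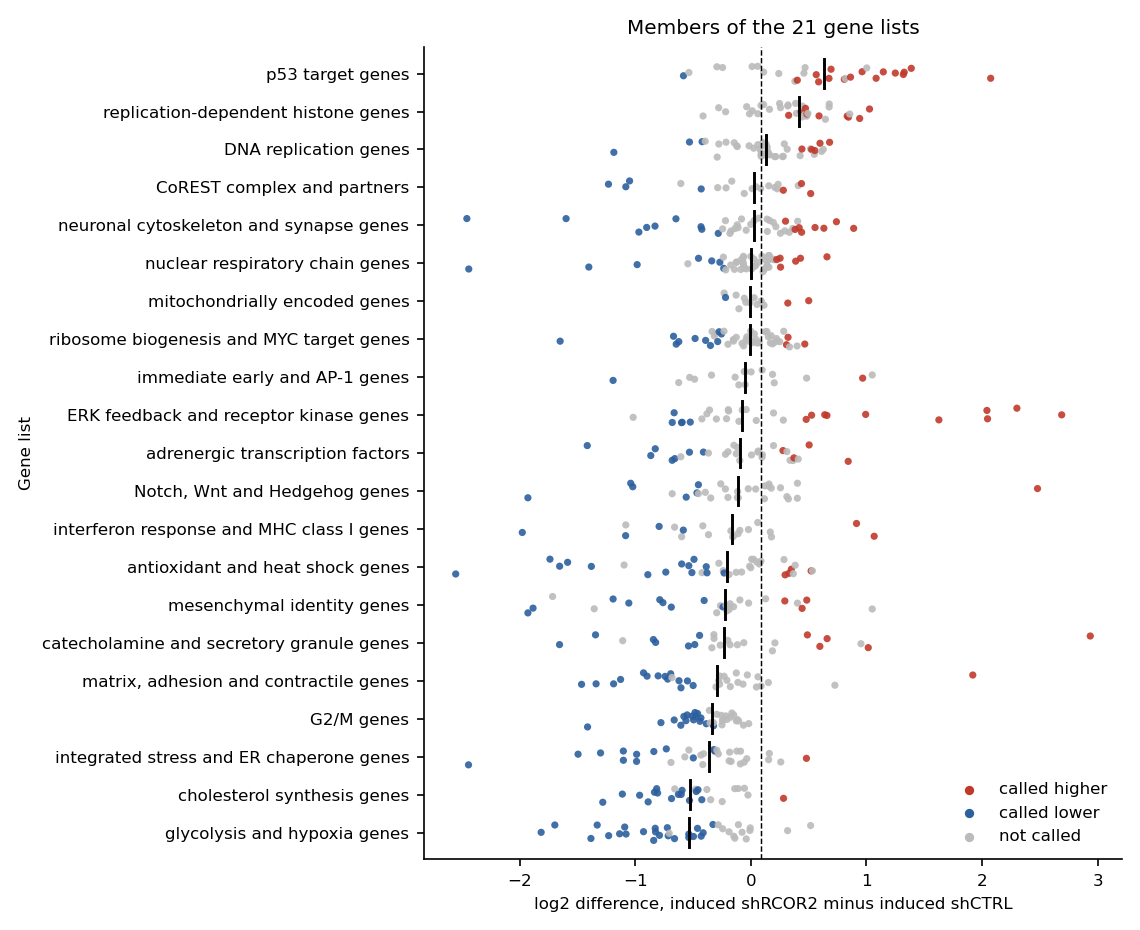
Log2 difference (horizontal axis, log2(TPM + 1) scale) of each tested member of the 21 gene lists (rows), with red for called higher, blue for called lower and grey for not called; black bars are list medians and the dashed line is the median of all genes, 0.09. The p53 list lies highest, with a median of 0.63, and the glycolysis and hypoxia list lowest, at −0.54.

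The share of members called, in either direction, was below the 35.8% of all genes in several lists. It was 19.5% for DNA replication, 26.5% for histones, 28.3% each for ribosome biogenesis and the nuclear respiratory chain, 24.1% for Notch, Wnt and Hedgehog, 30.0% for interferon and MHC class I, and 11.8% for immediate early genes. For the 13 messages of the mitochondrial genome it was 23.1%. It was 57.1% for p53 targets, 63.9% for glycolysis and hypoxia and 64.0% for sterol synthesis. Between these lay G2/M (45.7%), mesenchymal (46.2%), matrix (46.9%), antioxidant and heat shock (50%), catecholamine and granule (50%) and ERK genes (51.7%).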

How the data were processed

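Per the labels' protocols, RNA was extracted with a Qiagen RNeasy Plus Mini kit and made into NEBNext Ultra II Directional libraries. Reads were trimmed with Trim Galore 0.6.7, aligned with HISAT2 2.2.1 to GRCh38 (hg38) and quantified with StringTie 2.1.7, tools and builds that come from the submitters' processing notes. Strand setting, annotation and treatment of multiply aligned reads are not stated, so overlapping genes may share reads. For every library the authors deposited a table with TPM, FPKM and coverage signal per gene; the deposited TPM sum to the same total in each library, and no read counts were recovered from them, so no counting intervals are given.

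TPM were summed per gene identifier (60660, of which 60419 matched the gene name table and 110 symbols stand at more than 1). The 16842 genes that reached 1 TPM in 2 or more of the 12 libraries were fitted as log2(TPM + 1) in limma 3.58.1 (R 4.3.3) with 6 group means, the replicate number as a block and a variance trend, with calls made where the two-sided Benjamini-Hochberg adjusted p was below 0.05. All 12 libraries share 1 estimate of the spread, with 5 residual degrees of freedom against 1 for the 4 libraries alone. The replicate numbers pair the libraries: the deviations of replicate 1 from its group mean correlated at 0.372 to 0.750 across genes in all 15 pairs of groups, and at 0.448 for the 2 groups compared. The study's labels do not say what the numbers stand for.

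The members and gene lists were chosen with earlier results of these data known. Named genes are the RCOR genes and KDM1A, the 12 largest called rises and falls with a mean of at least 5 TPM in the higher group and no overlap between groups, the 8 largest each way that were also called in the difference of line differences, the 4 largest called members of each of 21 lists, and the CoREST and adrenergic lists; 3 genes that the rule names are not reported here. ETV5, SPRY1, SPRY2, DUSP4, DUSP6, NTRK3, FAS, CDKN1A, BAX, MDM2, BBC3, SESN1, FDXR, TOP2A, MKI67, CCNB1, HK2, HIF1A, ENO1, EPAS1, MTHFD2, ATF4, CHAC1, ASNS, HSPA5, NFE2L2, GCLM, GPX1, TH, DBH, CHGB, SCG2, SYN1, L1CAM, TWIST1, ITGAV and the genes of other lists named without a value were singled out after their values were seen. The alternatives were the fit without the block, pseudocounts 0.25 and 5, 2 filters, FPKM, 3 scalings, the compared libraries alone and each library left out; leaving out libraries for the list counts was added after seeing the data. The fit was also run on data simulated under its own model (additive replicate term, independent normal spread). That run cannot show whether the block suits these libraries. Plots and sums used Python 3.11.15, numpy 2.4.6, pandas 2.3.3 and matplotlib 3.10.9.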

Additional observations from a re-analysis of the deposited data

Results flagged for a closer look

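For 16 genes the difference between the induced lines itself differed from that between the untreated lines, by limma's test of the difference of differences; they are the 8 largest in each direction among genes called in both tests. The downward ones were TXNRD1 (−2.62 ± 0.14, adjusted p = 0.000192), STMN1 (−2.46 ± 0.17), COX7A2L (−2.44 ± 0.15), SLC7A5 (−2.28 ± 0.16), ANP32E (−1.98 ± 0.13), IGBP1 (−1.97 ± 0.16), MZT1 (−1.94 ± 0.13) and TSPO (−1.93 ± 0.22, the highest adjusted p of these 8 at 0.00211). The upward ones were VIP (2.62 ± 0.30), SERTM2 (2.53 ± 0.41), PLXNB3 (2.41 ± 0.28), MT-TD (2.17 ± 0.32), ACTA2 (2.13 ± 0.35), IP6K3 (2.12 ± 0.45), DKK1 (2.12 ± 0.28) and SHOX2 (2.06 ± 0.18), with limma adjusted p from 0.000783 to 0.018.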

How the results depend on the processing

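Without the replicate block, limma called 1657 genes higher and 894 lower between the induced lines (3871 and 2161 with it), 352 in the difference of line differences (2481) and 4672 between induced shRCOR2 and induced shRCOR1 (8103). The libraries compared alone gave 633 and 551 calls, 1 between the untreated lines and 1245 in the difference of differences, where no filter on low values gave 1511. Leaving out 1 library at a time gave 2234 to 3277 higher, 1200 to 2417 lower, 660 to 2843 in the difference of differences and 5697 to 6151 against induced shRCOR1; the left-out group then has 1 library, which is assumed to vary like the others. Without replicate 2 of induced shCTRL there were 3277 higher and 1507 lower. Of the 138 genes named, 122 were called and 70 of them stayed called under all 14 alternatives; no called gene changed sign. Leaving out 1 library ended 12 to 27 of the calls. Genes never called turned sign as follows. Median-of-ratios scaling gave ISL1 −0.047, RCOR1 −0.013, RCOR3 −0.061, HAND2 −0.013 and GATA2 −0.10; quantile normalization gave RCOR3 −0.047; leaving out mitochondrial genes gave GATA2 −0.0024. Over the libraries left out in turn, RCOR3 ran from −0.10 to 0.20, CHAC1 from −0.22 to 0.53, HAND2 from −0.10 to 0.30 and GATA2 from −0.19 to 0.20. The depth of these tables is known only in relative terms, which limits the sparse genes most, and 2 replicates with 1 hairpin line limit all of them. The cause of these shifts was not tested.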

Other observations

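Several small mitochondrial RNAs rose in induced shRCOR2, in a set chosen after its values were seen. The aspartate tRNA gene MT-TD stood at 202 and 294 TPM in induced shRCOR2 and at 47.9 and 67.2 TPM in induced shCTRL (2.08 ± 0.23, limma adjusted p = 0.000501), with 53.5 to 70.7 TPM in the untreated libraries. The histidine tRNA gene MT-TH stood at 49.5 and 44.2 TPM against 18.2 and 4.79 TPM (2.18 ± 0.38). Untreated libraries held 28.3 and 10.4 TPM of it (shRCOR2) and 26.8 and 6.90 TPM (shCTRL), its call ended without the replicate block, and its difference of line differences was not called (limma adjusted p = 0.0509). Both induced shRCOR2 libraries were above both controls in each gene, as in 33.1% of all genes. Of the 22 mitochondrial tRNA genes, all tested, 13 were called higher and 0 lower, with a median of 0.86, where 23% of all genes were called higher. The other 9 were not called, and 6 were called higher without the block. Mitochondrial transcripts together took 15.3% and 19.0% of TPM in induced shRCOR2 and 15.5% and 19.9% in induced shCTRL.

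By annotated type, 199 of 783 antisense genes rose and 38 fell (30.3% called) and 154 of 706 long intergenic RNAs rose and 39 fell (27.3%), both below the 35.8% called among all genes. Of 20 ribosomal RNA genes 13 rose and 0 fell (65.0%), and of 12889 protein-coding genes 3156 rose and 1963 fell (39.7%).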
